A study of Rattus norvegicus with 6 samples.

Results

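The DEAD and DEAH box helicase genes of rat PC12 cells were taken as the protein-coding rows of the count table whose symbol was Ddx or Dhx followed by a number. The sensor genes Ddx58 and Dhx58 were left out by rule. This gave 50 genes of 20609 in the table, 35 with a Ddx and 15 with a Dhx symbol. PC12 cells are a line derived from a chromaffin tumor (pheochromocytoma) of a rat adrenal gland. RNA-seq had been done on 3 libraries from cells transfected with a control plasmid (Control) and 3 from cells with PCBP1 overexpression (PCBP1-OE). According to the methods, the overexpression plasmid carried PCBP-1 with an EGFP tag, and the control carried a plasmid that the labels do not describe further. PCBP-1 is an RNA-binding protein that holds C-rich stretches of RNA, and the comparison asked which genes change when it is overexpressed. The study describes the libraries of a group as biological replicates, but the labels do not say whether they came from separate cultures, and p-values then measure the spread between these libraries, which may be technical.

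The libraries held 19730209 to 22315623 counts on genes. The level of the overexpressed gene itself was not analysed here, since no row was matched to it. Of 10 chromaffin markers, 9 were in the table. Th, the first enzyme of catecholamine synthesis, had 141 to 185 counts per library and Scg2 2607 to 3553, while Dbh had at most 5, Ddc at most 4, Chga at most 3 and Chgb at most 9. Sox10 had 7160 to 9007 counts and S100b 4143 to 5339, and both are markers of Schwann and glial cells. Thus several defining chromaffin markers were at or near 0 in all 6 libraries labelled PC12. The summed level of the 6 glial markers was 620 to 665 CPM (counts scaled to a library of 1000000) in Control and 587 to 607 in PCBP1-OE, and that of the 4 fibroblast markers found was 225 to 230 and 200 to 212. The 9 chromaffin markers summed to 162 to 193 and 148 to 165 CPM, the 6 leukocyte markers found to 44.4 to 51.5 and 39.1 to 44.5, and the 3 endothelial markers found to 4.07 to 5.62 and 4.95 to 5.90. Most of the fibroblast sum came from Pdgfra (195 to 226 CPM), while Col1a1 was at 2.99 to 3.67 CPM and Dcn had at most 5 counts. Most of the leukocyte sum came from Cd14 (31.9 to 42.5 CPM), while Ptprc had at most 3 counts. Scg2 (129 to 170 CPM) made up most of the chromaffin sum. The part of these marker levels in the results was not tested.

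RNA helicases of the DEAD and DEAH box families are named after the amino acids of a motif that helps to split ATP. DEAD box proteins pry apart short RNA duplexes or clamp RNA, and act in translation, mRNA export and the making of ribosomes. DEAH box proteins move along RNA, and several of them drive the steps of the spliceosome or of ribosome assembly. Ddx11, a DNA helicase, and Ddx26b carry the name by sequence likeness only.

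Of the 50 genes, 47 had enough counts for a test. A gene was called when edgeR's quasi-likelihood test, adjusted over all 12624 genes tested (Benjamini-Hochberg, FDR), gave 0.05 or less. By this rule 8 of 47 helicase genes (17.0%) were called, against 9.45% of all tested genes. The genes Ddx17, Dhx9, Dhx36, Ddx6, Ddx3x, Ddx3y and Dhx15 were higher in PCBP1-OE, and Ddx41 was lower. Thus 14.9% of the helicase genes rose, where 4.45% of all tested genes were called higher and 5.0% lower. None of the 47 was called with a change of 2-fold or more, a size that 0.190% of all tested genes reached together with the FDR. At an unadjusted p under 0.05 there were 18 helicase genes of 47, 15 higher and 3 lower, where 28.4% of all tested genes passed, 13.6% higher and 14.8% lower. In bulk RNA, a change in the share of cells that express a gene and a change per cell cannot be told apart.

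The shifts of the family were small. The median log2 fold change of the 47 genes was 0.049, with an interquartile range of -0.017 to 0.15, and that of all tested genes was 0.0029. In 34 genes the estimate was above 0 and in 13 below, where 6370 of all 12624 tested genes were above 0 and 6254 below. In 16 of 47 all 3 PCBP1-OE libraries lay above all 3 Control libraries, and in 5 they lay below, where 14.1% and 16.5% of all tested genes did so. The standard error of the log2 fold change was 0.041 to 0.25 (median 0.056). Of the 39 genes that were not called, 32 had a 95% interval of the change that lay within 1.25-fold in either direction. The intervals of Ddx11, Ddx26b, Ddx31, Dhx16, Dhx33, Dhx34 and Dhx35 reached beyond that size.

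**Figure D1:**
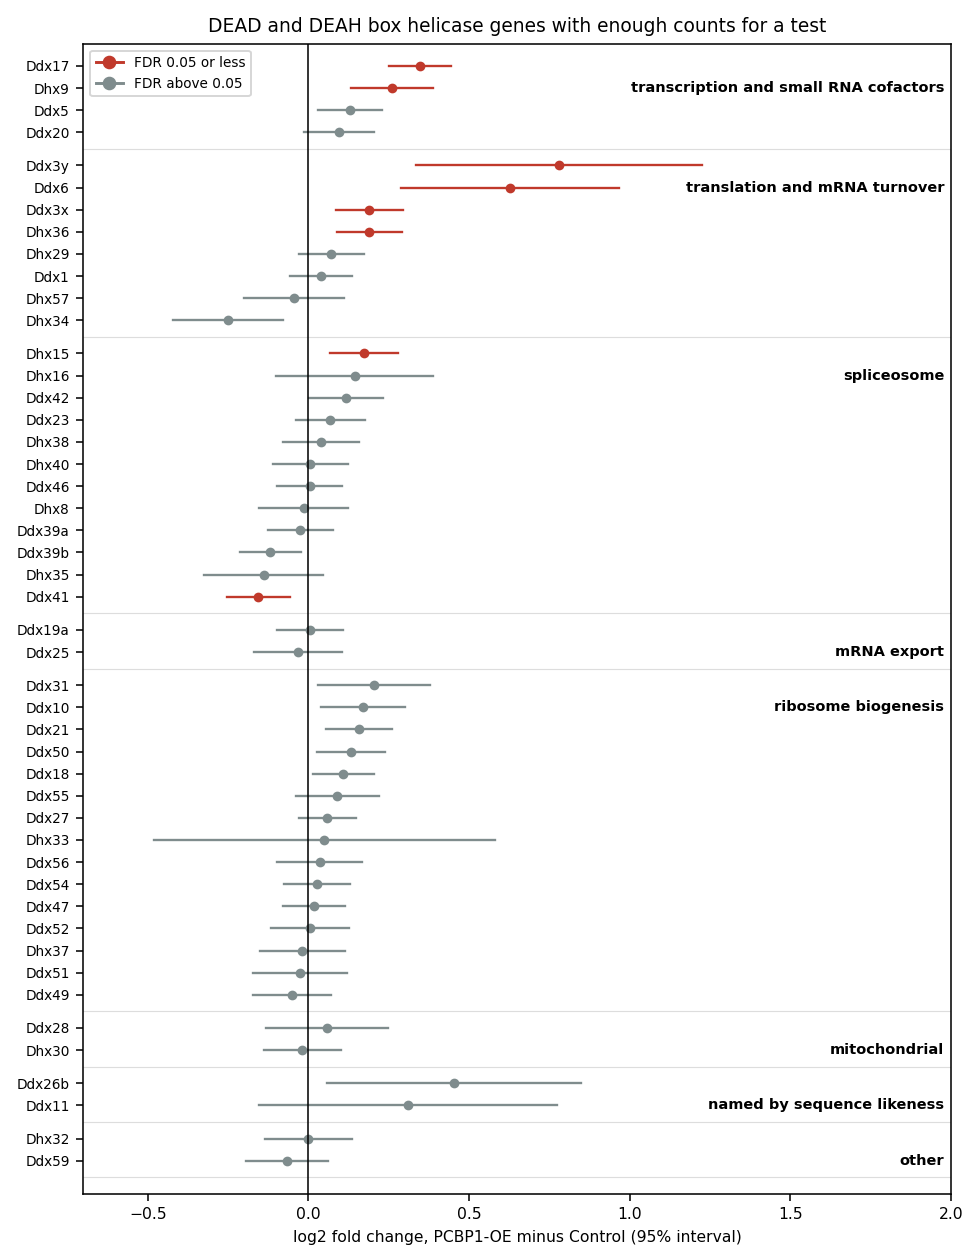
Log2 fold changes (horizontal axis, PCBP1-OE minus Control) of the 47 tested helicase genes, grouped by role, with 95% intervals as bars. The 8 genes with an FDR of 0.05 or less are in red, 7 to the right of 0 and Ddx41 to the left.

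Cofactors of transcription and of small RNA processing formed a group of 4 genes, of which Ddx17 and Dhx9 rose and Ddx5 and Ddx20 were not called. Ddx17 (ENSRNOG00000051170, chromosome 7), a coregulator of transcription and splicing that also works with the Microprocessor, had 113, 111 and 111 CPM in Control and 148, 141 and 137 in PCBP1-OE. All PCBP1-OE libraries were above all Control libraries. The Control libraries were closer together (coefficient of variation 0.956%) than counting noise alone would give on average (2.07%), so their SD may understate the spread. The means were 112 ± 1.07 and 142 ± 5.67 CPM (SD, n = 3 each), a rise of 27.3% or 0.35 on the log2 scale (standard error 0.04, edgeR adjusted p = 0.00183). Ddx17 was called with each of the 6 libraries left out in turn, with an adjusted p between 0.000292 and 0.0455.

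Dhx9 (ENSRNOG00000002735, chromosome 13), also known as RNA helicase A, unwinds structured RNA in transcription, splicing and translation. It was at 76.2, 80.1 and 84.1 CPM in Control and at 103, 96.2 and 88.5 in PCBP1-OE. The groups did not overlap, but Control replicate 3 and PCBP1-OE replicate 3 lay close together. The log2 fold change was 0.26 (standard error 0.06, edgeR adjusted p = 0.0216), a rise of 19.7%. Dhx9 was no longer called without Control replicate 1 (adjusted p = 0.0951) or 2 (0.113), or without PCBP1-OE replicate 1 (0.117) or 2 (0.0808).

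Ddx5 (ENSRNOG00000030680, chromosome 10), the closest relative of Ddx17, took the most counts of all members. Its Control libraries were at 908, 954 and 1004 CPM and its PCBP1-OE libraries at 1055, 1032 and 1050, without overlap. The log2 fold change was 0.13 (95% interval 0.03 to 0.23) and did not pass the threshold (edgeR adjusted p = 0.0860), except under 3 of 14 alternatives, among them the omission of Control replicate 3. Ddx20, known as Gemin3 of the SMN complex, had 49.2, 48.1 and 48.6 CPM in Control and 51.4, 51.3 and 53.0 in PCBP1-OE. The difference of 0.095 on the log2 scale was not called (adjusted p = 0.237).

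**Figure D2:**
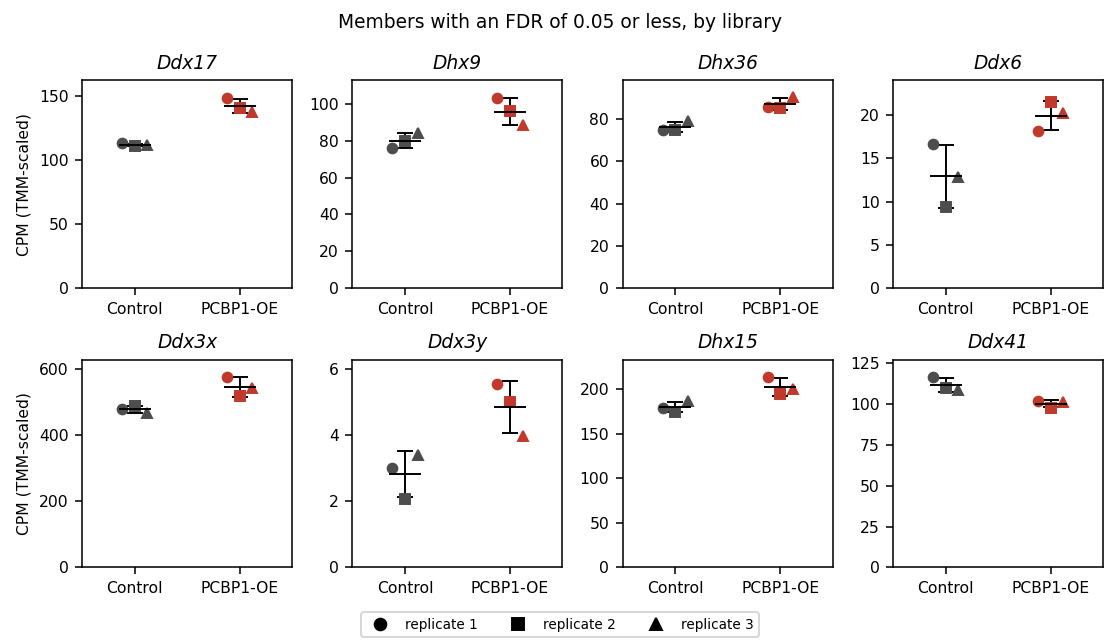
TMM-scaled CPM (vertical axis) of the 8 called helicase genes in each library, with circles, squares and triangles for replicates 1, 2 and 3 and bars for mean and SD (n = 3). No PCBP1-OE library of these genes reached into the range of the Control libraries, and Ddx6 and Ddx3y show the widest Control spread relative to their means (coefficients of variation of 28.2% and 24.3%).

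Among 8 genes of translation and mRNA turnover, Ddx3x, Ddx3y, Ddx6 and Dhx36 rose, and Ddx1, Dhx29, Dhx34 and Dhx57 were not called. Ddx3x (ENSRNOG00000023383, chromosome X), which helps ribosomes to scan structured 5' leaders, was at 478, 489 and 467 CPM in Control and 576, 517 and 544 in PCBP1-OE. PCBP1-OE exceeded Control by 0.19 on the log2 scale (standard error 0.05, edgeR adjusted p = 0.0306), a rise of 14.1%. Ddx3x was called in 1 of the 6 fits with a library left out, that without Control replicate 3 (0.0184). In the others the adjusted p was 0.0840, 0.100, 0.138, 0.0567 and 0.0532, without Control replicates 1 and 2 and PCBP1-OE replicates 1, 2 and 3 in that order. The Y-linked copy, Ddx3y (ENSRNOG00000057231, chromosome Y), had only 59, 43 and 76 counts in Control and 122, 101 and 78 in PCBP1-OE. This rise, 0.78 on the log2 scale (standard error 0.21, edgeR adjusted p = 0.0363), was the largest among the helicase genes tested, with a 95% interval of 0.33 to 1.23. Ddx3y lost its call without Control replicate 1 (0.0970) or 2 (0.164), or without PCBP1-OE replicate 1 (0.162) or 2 (0.116). Both copies are close in sequence, and reads shared between them could be lost or split in counting.

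Ddx6 (ENSRNOG00000053932, chromosome 8) is a repressor of translation that joins the decapping machinery and the Ccr4-Not complex in P-bodies. It had 326, 195 and 288 counts in Control and 400, 434 and 396 in PCBP1-OE, or 16.6, 9.34 and 12.8 CPM against 18.2, 21.5 and 20.2. Control replicate 2 was the lowest library, and Control replicate 1 came closest to the PCBP1-OE group. The log2 fold change was 0.63 (standard error 0.16, edgeR adjusted p = 0.0304), and 0.45 without Control replicate 2, where it was no longer called (0.123). It was also not called without PCBP1-OE replicate 1 (0.0856), 2 (0.118) or 3 (0.0677). Over the 3 Control libraries the coefficient of variation of Ddx6 was 28.2%, against a median of 4.91% for the tested helicase genes. The RefSeq gene table lists pseudogenes of Ddx6. Whether reads of near-identical copies affect its count was not tested.

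Dhx36 (ENSRNOG00000014599, chromosome 2), which resolves G-quadruplexes, was at 74.8, 74.9 and 79.0 CPM in Control and 85.7, 85.1 and 90.3 in PCBP1-OE. The spread within each group was small beside the gap between them, and the log2 fold change was 0.19 (standard error 0.05, edgeR adjusted p = 0.0292). With libraries left out, Dhx36 was called only without Control replicate 3 (0.00566), and was at 0.0908 and 0.128 without Control replicates 1 and 2, and at 0.0926, 0.0786 and 0.0677 without PCBP1-OE replicates 1, 2 and 3. Dhx34, a factor of nonsense-mediated decay, pointed the other way. It had 26.4, 26.7 and 27.6 CPM in Control and 24, 20.7 and 23.2 in PCBP1-OE. This difference, -0.25 on the log2 scale (95% interval -0.42 to -0.08), missed the threshold (edgeR adjusted p = 0.0643), but was called in 2 of 14 alternatives, without the low-count filter and with edgeR's exact test. Ddx1, a subunit of the tRNA ligase complex and the third most counted member, differed by a log2 value of 0.039 with a 95% interval of -0.06 to 0.14. Dhx29, which helps the small ribosomal subunit through structured leaders, and Dhx57 were at 0.072 and -0.045.

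The spliceosome group had 12 genes, of which 1 rose and 1 fell (16.7% called, against 9.45% of all tested genes). Dhx15 (ENSRNOG00000003844, chromosome 14), the helicase that takes spent spliceosomes apart, had 178, 175 and 186 CPM in Control and 214, 194 and 200 in PCBP1-OE. The log2 fold change was 0.17 (standard error 0.05, edgeR adjusted p = 0.0433), a rise of 12.8%. With libraries left out, it was called only without Control replicate 3 (0.0104) and reached 0.216 without PCBP1-OE replicate 1. The values without Control replicates 1 and 2 were 0.150 and 0.205, and without PCBP1-OE replicates 2 and 3 they were 0.0806 and 0.0829. Ddx41 (ENSRNOG00000012771, chromosome 17), a helicase of the late spliceosome, was at 117, 110 and 109 CPM in Control and 102, 97.7 and 101 in PCBP1-OE. The fall was -0.16 on the log2 scale (standard error 0.05, edgeR adjusted p = 0.0496). This call was the weakest of the 8, since it was lost in 12 of 14 alternatives and kept only under edgeR's exact test (0.0329) and without Control replicate 3 (0.0155), in a range of 0.0155 to 0.241.

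The remaining spliceosomal helicases gave values near 0 or short of the threshold. Ddx39b, also known as UAP56, which loads early spliceosomes and the mRNA export complex, was at 346, 339 and 322 CPM in Control and 312, 302 and 315 in PCBP1-OE. The groups did not overlap, but the log2 fold change of -0.12 (95% interval -0.21 to -0.02) was not called (edgeR adjusted p = 0.0978), except without Control replicate 3 (0.0237). The 4 helicases of the catalytic steps and of the branch site gave log2 fold changes of 0.14 for Dhx16, 0.040 for Dhx38, -0.015 for Dhx8 and 0.0039 for Ddx46, and none of these was called. Ddx23, which acts when the spliceosome is activated, was at 0.069 (95% interval -0.04 to 0.18). Ddx42 was at 0.12 (adjusted p = 0.172), Dhx40 at 0.0064, Ddx39a at -0.025 and Dhx35 at -0.14 (adjusted p = 0.312). The mRNA export helicases Ddx19a and Ddx25 were at 0.0038 and -0.032, and neither was called in the reported fit or under an alternative, nor had an unadjusted p under 0.05.

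Helicases of ribosome biogenesis made up the largest group, with 15 genes. None was called, where 9.45% of all tested genes were, although 12 estimates were above 0. Over all tested genes, 6370 of 12624 estimates were above 0. The group median was 0.049, and 5 genes had an unadjusted p under 0.05, all higher, where 13.6% of all tested genes had such a p and were higher. Ddx21 (ENSRNOG00000043099, chromosome 20), a nucleolar helicase of rRNA transcription and processing, was nearest to the threshold. Its Control libraries were at 187, 187 and 206 CPM and its PCBP1-OE libraries at 219, 215 and 212. Control replicate 3 was the highest of its group and lay just under the PCBP1-OE libraries. The log2 fold change was 0.16 (95% interval 0.05 to 0.26, edgeR adjusted p = 0.0562), and 6 of 14 alternatives called it. Ddx10, Ddx50, Ddx31 and Ddx18, nucleolar helicases as well, had log2 fold changes of 0.17, 0.13, 0.21 and 0.11 with adjusted p-values of 0.0863, 0.0960, 0.116 and 0.123. At the other end, Ddx49, Ddx51 and Dhx37 were at -0.050, -0.025 and -0.018. The estimates of Ddx27, Ddx47, Ddx52, Ddx54, Ddx55 and Ddx56 lay between 0.0068 and 0.091. DESeq2, limma-voom and edgeR's exact test each called 1 gene of this group, Ddx21. Without the low-count filter 2 were called, Ddx10 and Ddx21, and without Control replicate 3 there were 4, Ddx10, Ddx21, Ddx31 and Ddx50. Dhx33 had 58 to 138 counts per library and an interval of -0.48 to 0.58, so that a change of moderate size could not be resolved with these libraries. Its Control coefficient of variation was 35.1%, where counting noise alone would give 10.2%.

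The mitochondrial helicases Ddx28 and Dhx30, both of mitoribosome assembly, were at 0.058 and -0.019, and neither was called in the reported fit or under an alternative, nor had an unadjusted p under 0.05. Ddx59, linked to ciliary signalling, and Dhx32 were at -0.067 and 0.00049, both not called. Ddx26b had 54, 47 and 58 counts in Control and 72, 78 and 64 in PCBP1-OE. This difference of 0.45 on the log2 scale was among the 6 of largest size, but was not called (edgeR adjusted p = 0.124). Ddx11 was at 0.31 with an interval of -0.16 to 0.77. The germline helicases Ddx43 and Ddx4 and the interferon-inducible Ddx60 had too few counts for a test. Ddx43 was counted 0 times in each Control library and 1 time in each PCBP1-OE library, where a count of 0 allows up to 3 counts, so no difference is resolved. Ddx4 had 0 to 1 counts per library, and Ddx60 had 2, 0 and 3 in Control and 1, 4 and 2 in PCBP1-OE.

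The promoters of the called genes were examined because most of them were higher in PCBP1-OE. Whether these genes changed jointly was not tested. RefSeq windows of the assembly GRCr8, from 250 bases before to 50 after the start of a gene, were matched by symbol to 47 of the 50 members, in 49 windows. Printed here, 5' to 3' along the gene, are the windows of Ddx17 (chr7:112989698-112989997, minus strand), the most stable call; of Dhx9 (chr13:68189497-68189796, minus strand), Dhx36 (chr2:149044142-149044441, minus strand) and Dhx15 (chr14:62999648-62999947, plus strand), which also rose; and of Ddx41 (chr17:9107920-9108219, plus strand), which fell. Capitals mark the letters GGGCGG (a GC box), CCAAT and CCGGAAG (an ETS-type motif), or their reverse complements.
Ddx17: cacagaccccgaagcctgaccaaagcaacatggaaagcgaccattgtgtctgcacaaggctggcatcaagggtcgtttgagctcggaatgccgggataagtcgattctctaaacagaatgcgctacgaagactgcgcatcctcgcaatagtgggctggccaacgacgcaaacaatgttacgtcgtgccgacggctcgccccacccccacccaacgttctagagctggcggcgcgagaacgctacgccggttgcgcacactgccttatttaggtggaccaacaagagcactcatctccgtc
Dhx9: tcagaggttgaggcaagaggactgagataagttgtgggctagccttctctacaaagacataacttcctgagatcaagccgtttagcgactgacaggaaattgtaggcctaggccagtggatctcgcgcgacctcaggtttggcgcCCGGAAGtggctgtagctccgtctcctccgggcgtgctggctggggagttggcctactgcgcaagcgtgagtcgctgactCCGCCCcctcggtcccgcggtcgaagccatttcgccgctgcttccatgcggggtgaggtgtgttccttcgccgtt
Dhx36: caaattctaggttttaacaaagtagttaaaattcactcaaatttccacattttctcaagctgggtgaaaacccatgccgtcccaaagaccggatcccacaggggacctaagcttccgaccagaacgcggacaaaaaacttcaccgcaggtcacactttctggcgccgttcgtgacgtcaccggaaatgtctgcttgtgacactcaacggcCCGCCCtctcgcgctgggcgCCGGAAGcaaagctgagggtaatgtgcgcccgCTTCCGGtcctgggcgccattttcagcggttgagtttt
Dhx15: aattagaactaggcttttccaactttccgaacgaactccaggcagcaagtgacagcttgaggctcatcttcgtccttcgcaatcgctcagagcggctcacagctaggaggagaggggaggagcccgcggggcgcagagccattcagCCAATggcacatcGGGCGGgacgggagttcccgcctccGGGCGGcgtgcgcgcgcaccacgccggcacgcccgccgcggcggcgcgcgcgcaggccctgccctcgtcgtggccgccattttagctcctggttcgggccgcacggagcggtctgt
Ddx41: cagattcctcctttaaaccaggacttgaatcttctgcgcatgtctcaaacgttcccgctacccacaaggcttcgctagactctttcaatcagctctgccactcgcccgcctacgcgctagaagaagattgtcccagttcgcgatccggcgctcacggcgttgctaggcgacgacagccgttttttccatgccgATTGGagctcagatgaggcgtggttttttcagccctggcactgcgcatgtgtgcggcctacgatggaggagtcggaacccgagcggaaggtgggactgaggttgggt

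The printed window of Ddx17, the more CpG-rich of its 2, held none of the 3 motifs in capitals. Those of Dhx9 and Dhx36 held both a GC box and the ETS-type letters, that of Dhx15 held 2 GC boxes and a CCAAT, and that of Ddx41 a CCAAT alone. Windows of members were rich in CpG, with a median of 23 CG pairs, against 20.5 in windows of the other tested genes and 7 in all 33469 windows. The letters CCGGAAG were in 20 of the 49 member windows (40.8%), in 17.1% of the windows of other tested genes and in 8.75% of all windows. The GC box letters were in 57.1% of member windows, 61.5% of windows of other tested genes and 33.1% of all windows. CCAAT was in 49% of member windows, against 37.7% and 37.5% in the same order, and the TATA box letters TATAAA were in 4.08%, 6.91% and 14.2%. Of the 7 called members with a window, 3 (42.9%) held a GC box, 2 (28.6%) a CCAAT and 2 (28.6%) the ETS-type letters. Among all 47 members with a window these shares were 57.4%, 48.9% and 40.4%. The windows of Ddx3x and Ddx3y, which also rose, were not printed and held none of the 3 motifs. The letters CACGTG (an E-box) were in 14.3% of member windows, 9.12% of those of other tested genes and 6.42% of all. The C-rich letters CCCTCC were in 34.7%, 47.3% and 37.6%. Both strands were searched, a base could count towards more than 1 motif, and a match describes letters only.

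Ratios between related helicases within a library need no scaling between libraries, and 3 pairs were compared. The ratio of Ddx5 to Ddx17 counts was 8.04, 8.61 and 9.02 in Control and 7.11, 7.34 and 7.65 in PCBP1-OE. All PCBP1-OE libraries were below all Control libraries, by -0.22 on the log2 scale (exact permutation test, two-sided, p = 0.1, below which 3 against 3 libraries cannot go; 0.15 adjusted over the 3 pairs). For Ddx39a to Ddx39b the ratio was 0.570, 0.589 and 0.574 in Control and 0.591, 0.631 and 0.626 in PCBP1-OE. These groups did not overlap either, with a log2 difference of 0.093 (exact permutation test, p = 0.1, adjusted 0.15), although the highest Control and the lowest PCBP1-OE library were nearly equal. The ratio of Ddx21 to Ddx50, neighbours on chromosome 20, was 1.59, 1.45 and 1.59 in Control against 1.65, 1.55 and 1.52 in PCBP1-OE. These groups overlapped (two-sided exact permutation, p = 0.7, adjusted 0.7).

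**Figure D3:**
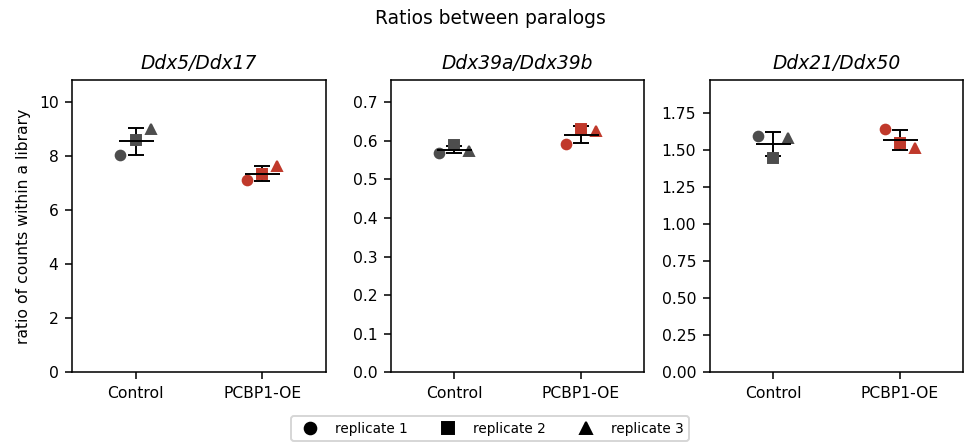
Ratio of the counts of related helicase genes within each library (vertical axis), with circles, squares and triangles for replicates 1, 2 and 3 and bars for mean and SD (n = 3). The Ddx5 to Ddx17 ratio was 7.11 to 7.65 in PCBP1-OE and 8.04 to 9.02 in Control, and the Ddx21 to Ddx50 ratios overlapped.

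Summed over the 50 genes, helicase counts made up 5033, 5141 and 5437 CPM of the unscaled totals in Control and 5850, 5637 and 5511 in PCBP1-OE. The PCBP1-OE libraries were all above the Control libraries, with Control replicate 3 the nearest to them. The means were 5204 ± 209 and 5666 ± 171 CPM (SD, n = 3 each), a difference of 8.88%. With TMM scaling it was 5.76%, from 5283 ± 112 to 5587 ± 74.3. Without the 8 called genes the unscaled sums were 4166 ± 191 and 4450 ± 112 CPM, a difference of 6.82%, and these groups overlapped. The 8 genes were picked because they differed in these same libraries, so a smaller difference without them follows from the choice. Ddx5 alone took 18.4% of the helicase counts, Ddx3x 9.42%, Ddx1 7.41%, Ddx39b 5.93% and Ddx21 3.76%. These shares are of counts and were not corrected for transcript length.

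**Figure D4:**
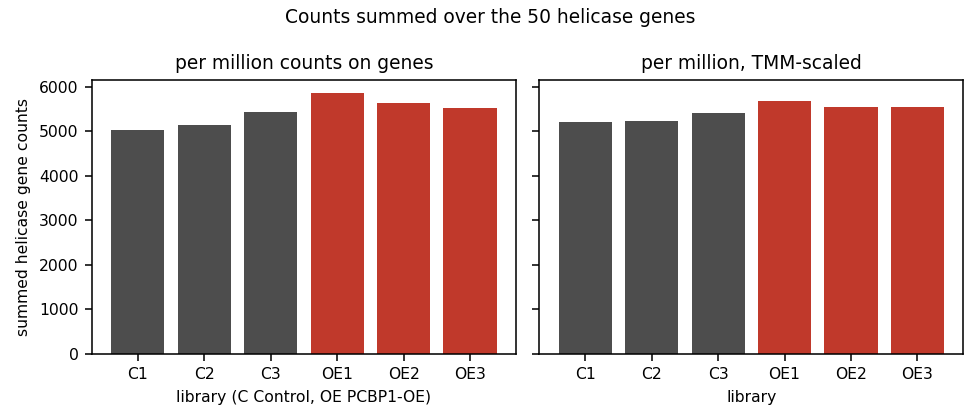
Counts summed over the 50 helicase genes in each library (bars), as CPM of the unscaled totals on the left and TMM-scaled on the right. The Control bars are at 5033 to 5437 and the PCBP1-OE bars at 5511 to 5850 CPM on the left.

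Genes that work with these helicases, and RNA helicases named otherwise, were counted from fixed lists. Of 76 genes, 75 were tested and 9 were called (12%, against 9.45% of all tested genes), all higher. The median log2 fold change of the 75 was 0.034. Among 10 genes of the Ddx6 and decapping list, Lsm14a and Edc3 rose. Both bind Ddx6 directly. Lsm14a rose by a log2 value of 0.20 (standard error 0.04, edgeR adjusted p = 0.0184) and Edc3 by 0.44 (standard error 0.10, adjusted p = 0.0244). Edc3 was at 9.55 ± 0.190 CPM in Control and 12.9 ± 0.815 in PCBP1-OE (SD, n = 3 each), without overlap.

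The TREX and mRNA export list holds the partners of Ddx39b, Ddx39a and Ddx19a. Of its 13 genes, 1 (7.69%) was called, against 9.45% of all tested genes. This was Thoc2, the scaffold of the THO complex, with 124, 92 and 169 counts in Control and 241, 260 and 194 in PCBP1-OE. The rise was 0.88 on the log2 scale (standard error 0.17, edgeR adjusted p = 0.0134), and the median of the list was -0.030. In the exon junction list 1 of 9 genes rose (11.1%, against 9.45% of all tested genes called and 4.45% called higher). That gene was Upf2, a factor of nonsense-mediated decay, with a rise of 0.61 (standard error 0.13, edgeR adjusted p = 0.0181). Of 16 tested G-patch proteins, which bind and often stimulate DEAH helicases, Gpatch8 and Son rose, by 0.21 and 0.18. This is 12.5% of that list, against the same shares over all tested genes. None of the 7 genes of the SMN complex or the 2 of the Microprocessor, Drosha and Dgcr8, was called. None of these 9 had an unadjusted p under 0.05, and none was called under any of the 14 alternatives, DESeq2 and limma-voom among them.

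Of 18 RNA helicases outside the naming rule, Eif4a2, Ascc3 and Helz2 rose and none fell. This is 16.7% called higher, where 4.45% of all tested genes were. Eif4a2 is a DEAD box helicase of the cap-binding complex, and had 8394, 9065 and 10259 counts in Control and 11675, 10156 and 10483 in PCBP1-OE. The rise was 0.25 on the log2 scale (standard error 0.05, edgeR adjusted p = 0.0102). Eif4a1, at a mean of 996 CPM in Control and 979 in PCBP1-OE, was not called (log2 fold change -0.025, adjusted p = 0.725). Ascc3, which splits collided ribosomes, was at 0.30 (standard error 0.07, adjusted p = 0.0178). Helz2, an interferon-inducible helicase, was at 0.88 (standard error 0.24, adjusted p = 0.0405), on only 42 to 56 counts in Control and 64 to 124 in PCBP1-OE. The list median was 0.15, the highest of the partner lists.

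The number of called helicase genes depended on which libraries were used, as did the number over all genes. Without Control replicate 3, the Control library with the largest share of helicase counts, 15 helicase genes (31.9%) and 22.3% of all tested genes were called. Without Control replicate 2 the call of Ddx17 alone remained, as it did without PCBP1-OE replicate 1 or 2, where 0.375%, 1.32% and 1.06% of all tested genes were called. Ddx17 and Ddx6 were called without Control replicate 1, and Ddx17, Ddx3y and Dhx9 without PCBP1-OE replicate 3. In 3 of these fits the helicase count rested on 1 gene, and in 1 more, without PCBP1-OE replicate 3, 6.38% of helicase genes were called against 5.42% of all tested genes, a share near the background. The partner genes called without these libraries numbered 3, 0 and 17 for Control replicates 1, 2 and 3, and 0, 1 and 6 for PCBP1-OE replicates 1, 2 and 3.

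**Figure D5:**
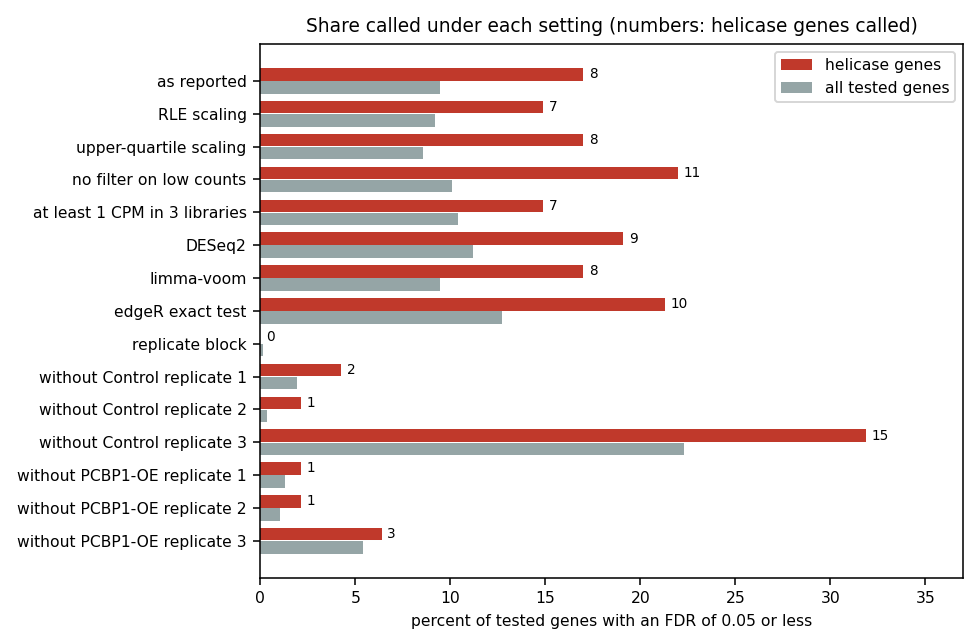
Percent of tested genes with an FDR of 0.05 or less (horizontal axis) among the helicase genes and among all tested genes, as reported and under 14 alternatives, with the number of helicase genes called beside each bar. The share of helicase genes runs from 0 with a replicate block to 31.9% without Control replicate 3.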

How the data were processed

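The table deposited by the authors holds raw counts of reads per gene for 6 libraries. The methods state read cleaning by FASTX-Toolkit, alignment to the rat genome Rnor_6.0 by TopHat2 and counting of uniquely mapped reads; the submitters' processing notes name bcl2fastq, TopHat2 and edgeR, and list GRCh38 as the build, while the gene identifiers are of rat. The methods and the labels name different stranded poly-A kits. Which tool counted the reads, with which strand setting and annotation, is not stated in the material used, so overlapping or near-identical genes have uncertain counts. Libraries were assigned to groups by title.

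Counts were analysed with edgeR 4.0.16 in R 4.3.3: filterByExpr (minimum count 10, minimum total 15) kept 12624 genes and left out 7985, TMM scaled the libraries, and the quasi-likelihood test was adjusted over all tested genes by the Benjamini-Hochberg method. The whole table was fitted, and the pipeline was tested on simulated data. CPM uses TMM-scaled totals. The depth was 19730209 to 22315623 counts in a library, and standard errors of the log2 fold change ran from 0.041 to 0.25. Precision depends on the spread between libraries as well as on depth. For Ddx5 the Control coefficient of variation was 5.04%, where counting noise alone would give 0.706%. Ratios of paralogs were compared by exact permutation in Python 3.11.15 (numpy 2.4.6). The alternatives comprised scaling by RLE or upper quartile, no low-count filter, at least 1 CPM in 3 libraries, DESeq2 1.42.0, limma-voom (limma 3.58.1), edgeR's exact test, a replicate block and each library left out.

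Members and lists were chosen with earlier results of these data known. Named are the called members, the 6 of largest change, the 5 with most counts, the paralog pairs, untested members and up to 3 called genes of each partner list; other members are named to account for their role group and were chosen after their values were seen. Ddx19b was not analysed here. Dcp2 and Thoc1 have 2 rows each, of which that with more counts was used, and Mtrex was matched through its synonym Skiv2l2. Promoter windows are from RefSeq (GRCr8), used for sequence and names only.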

Additional observations from a re-analysis of the deposited data

How the results depend on the processing

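The number of helicase genes called stayed between 7 and 11 under the other scalings, filters and tests (8 as reported), and was 1 to 15 with 1 library left out. The 7 called higher became 1 to 13, the 1 called lower 0 to 2, the 1193 genes called in all 48 to 2860, and the 9 partner genes 0 to 17 in those fits. The count called lower was 0 with RLE or upper-quartile scaling, the filter at 1 CPM, DESeq2 and limma-voom, and 2 with edgeR's exact test. Without a filter, 2090 genes in all and 14 partner genes were called. The split over all genes was 562 higher and 631 lower with TMM and 655 and 427 with upper-quartile scaling, whose median shift over all genes was 0.023. The replicate block left 0 helicase genes higher and 0 lower, 0 partner genes and 16 genes in all, with Ddx17 at an adjusted p of 0.0609. Same-numbered libraries did not deviate together (correlations of -0.104, -0.0813 and -0.107), so the numbers were not taken as pairs. The count at 2-fold was 0 in each of the 14 alternatives. Ddx39a (-0.025) changed sign without Control replicate 2, with a range of -0.058 to 0.0021 over the fits without a library, and so did Ddx19a (0.0038) without Control replicate 1, with a range of -0.030 to 0.037. The median log2 fold change of the helicase genes was 0.036 to 0.069 over the alternatives. The difference of summed helicase counts, 462 CPM, was 304 with TMM scaling and 370 to 579 with 1 library left out. The log2 difference of the Ddx5 to Ddx17 ratio was -0.26 to -0.18 and that of Ddx39a to Ddx39b 0.075 to 0.12 in those fits, while that of Ddx21 to Ddx50 (0.025) changed sign without Control replicate 2 (-0.020) and without PCBP1-OE replicate 1 (-0.0090). The cause of these changes was not tested. Genes with few counts, such as Dhx33, Ddx11 and Ddx3y, have the widest intervals.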

Other observations

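A row described as a DDX24-like RNA helicase (LOC100909476, chromosome 6) falls outside the naming rule. It had 2456, 2802 and 3001 counts in Control and 2844, 2658 and 2478 in PCBP1-OE, with a log2 fold change of -0.023 (95% interval -0.12 to 0.075, edgeR adjusted p = 0.784), and the groups overlapped.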
